A study of Mus musculus with 12 samples.

Results

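The 9 genes described here make, remove or sense retinoic acid, the active form of vitamin A. They were chosen by name from a table of 49315 genes counted in the femoral shaft of mice, and all 9 were present in it. Rdh10, Aldh1a2 and Aldh1a3 serve synthesis, Dhrs3 runs the first step backwards, Cyp26a1 and Cyp26b1 break retinoic acid down, and Rara, Rarb and Rarg encode its receptors.

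RNA was sequenced in bulk from femoral shafts of male mice at 12 weeks of age, after the marrow had been spun out. The mice were labelled either as knockouts (KO, Cat -/-) for catalase, the peroxisomal enzyme that degrades hydrogen peroxide, or as wild type (WT, Cat +/+), and they ate regular chow. Ethanol was gavaged at 3, 3, 4 and 4.5 g per kg of body weight on 4 successive days, drawn from a 31.5% (v/v) solution, and the control mice received the same volume of phosphate-buffered saline (PBS). Tissue was taken 6 hours after the final gavage. The 4 groups were KO ethanol (libraries 4, 5 and 6), KO PBS (libraries 1, 2 and 3), WT ethanol (libraries 10, 11 and 12) and WT PBS (libraries 7, 8 and 9). Each library pooled RNA from 2 mice, so the spread reported is that between pools and single mice cannot be seen. The sources used here name neither the strain nor the design of the Cat allele.

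Retinol from the blood is oxidised first to retinal, a reversible step for which RDH10 is the main forward enzyme in the embryo and DHRS3 the reverse one, and then to retinoic acid by ALDH1A enzymes in a step that is not reversed. CYP26 enzymes, which are cytochrome P450s, oxidise retinoic acid to inactive polar products. Retinoic acid binds the receptors RARα, RARβ and RARγ, which sit on DNA as heterodimers with RXR. Rarb, Cyp26a1 and Dhrs3 are textbook genes that retinoic acid itself switches on. In the skeleton, RARγ and CYP26B1 are known from cartilage and bone development, and vitamin A in excess makes long bones fragile.

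The genotype labels were checked on the targeted gene. Levels below are CPM, that is, gene counts rescaled so that all libraries have the same effective size. Cat averaged 71.6 ± 2.58 CPM in KO ethanol libraries and 160.4 ± 14.4 CPM in WT ethanol libraries (SD, n = 3 each), and 67.5 ± 2.22 CPM in KO PBS libraries against 151.5 ± 23.4 CPM in WT PBS libraries. The log2 fold change of KO over WT was -1.16 (SE 0.10) under ethanol and -1.17 under PBS, with adjusted p of 0.00102 and 0.00202 in edgeR's quasi-likelihood test, so the transcript was lower in KO libraries but still counted. Total counts ran between 19950222 and 28789308 per library. Bone markers were abundant in the shafts (Col1a1 averaged 11560 CPM, the osteocyte gene Sost 1111 CPM and the osteoclast gene Ctsk 532.6 CPM). Transcripts of blood and marrow cells remained abundant too. The erythroid gene Hbb-bs averaged 7806 CPM, the neutrophil gene S100a8 6347 CPM and the marrow stromal gene Cxcl12 2824 CPM. In the WT groups 3 libraries stood apart: 10 skeletal muscle markers made up 2.27% and 2.54% of the counts in WT PBS libraries 8 and 9 and 2.75% in WT ethanol library 12, against 0.10% to 1.46% in the others, and mitochondrially encoded genes made up 5.04% to 6.403% there against 2.20% to 2.94% elsewhere. Values of the 9 genes are also given without these 3 libraries where that changed a call, or turned or moved by over 1.5 times a value that the text rests on.

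Ethanol gavage was followed by higher Cyp26b1 and Dhrs3 in both genotypes, the clearest changes among the 9 genes. Averaged over genotypes, the receptor gene Rarb was also higher and the synthesis gene Aldh1a2 lower, while Rdh10, Rara, Rarg, Aldh1a3 and Cyp26a1 did not pass the test. Calls were made at a threshold of 0.05 on the p from edgeR's quasi-likelihood test, adjusted by Benjamini-Hochberg over the 18161 genes tested. All 9 genes were among those tested. In KO mice 2 of the 9 were called for ethanol against PBS, both higher, where 1.87% of all tested genes were called, 0.964% higher and 0.903% lower. In WT mice the same 2 of 9 were called, both higher, against 1.26% of all genes called and 0.556% called higher. For the ethanol effect averaged over genotypes 4 of 9 were called, 3 higher and 1 lower, where 10.8% of all genes were called, 5.02% higher and 5.81% lower. The median log2 fold change of the 9 genes was 0.19 in KO, 0.18 in WT and 0.10 averaged. The medians over all tested genes were 0.00, -0.02 and -0.01. The WT and averaged medians of the 9 genes are the values of Aldh1a3, which was not called. Without the 3 libraries rich in muscle RNA the WT value of Aldh1a3 was -0.01. No median of the 9 genes is given without those libraries. The medians therefore do not show a shift of the whole set in WT or averaged.

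**Figure D1:**
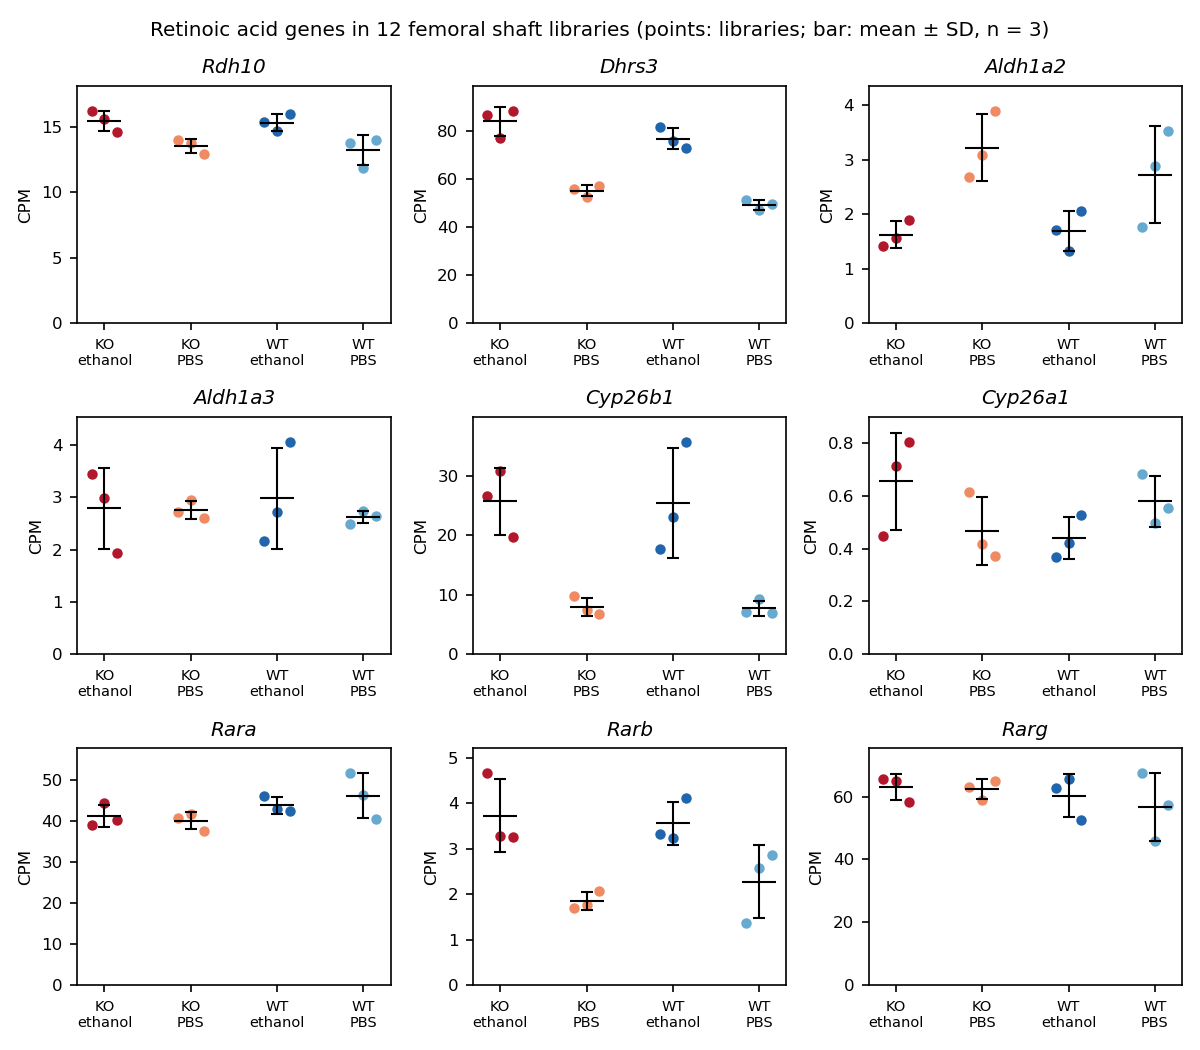
CPM of the 9 retinoic acid genes (vertical axis, linear from 0, own scale in each panel) in the 3 libraries of each group; points are libraries, and the bars give the mean ± SD (n = 3). Every ethanol library lies above every PBS library of the same genotype for Dhrs3, Cyp26b1, Rdh10 and Rarb, and in KO every ethanol library lies below every PBS library for Aldh1a2.

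Rdh10 (ENSMUSG00000025921, chromosome 1, 16105774 to 16133734, plus strand, GRCm38) encodes the retinol dehydrogenase that opens the pathway. It measured 16.2, 15.6 and 14.6 CPM in KO ethanol libraries against 14.0, 13.8 and 12.9 CPM in KO PBS libraries. In WT it measured 15.4, 14.7 and 15.96 CPM in ethanol libraries against 13.8, 11.9 and 14.0 CPM in PBS libraries. The groups did not overlap in either genotype, but the differences were small. The log2 fold change was 0.19 (SE 0.09, adjusted p 0.287) in KO and 0.21 (SE 0.09, adjusted p 0.251) in WT, where it was 0.14 without the 3 libraries rich in muscle RNA. Averaged over genotypes it was 0.20 (SE 0.06), a 1.15-fold difference whose adjusted p of 0.0542 just missed the threshold.

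Dhrs3 (ENSMUSG00000066026, chromosome 4, 144892827 to 144928209, plus strand), the short-chain reductase that returns retinal to retinol, had the smallest standard error of the 9 genes. In KO it stood at 86.8, 76.9 and 88.2 CPM in ethanol libraries against 55.7, 52.6 and 57.1 CPM in PBS libraries. In WT it stood at 81.6, 75.9 and 72.9 CPM in ethanol libraries against 51.1, 47.0 and 49.7 CPM in PBS libraries. All 6 ethanol libraries lay above all 6 PBS libraries, and the 3 libraries of a group lay close together. Dhrs3 rose 1.52-fold in KO (log2 fold change 0.61, SE 0.07, adjusted p 0.00362) and 1.56-fold in WT (0.64, SE 0.07, adjusted p 0.00582). It had the 8th smallest p of all tested genes in KO and the 3rd smallest in WT. The KO call held in all 22 alternative settings. The WT call was lost in 1, a fit of the 6 WT libraries alone (log2 fold change 0.66, adjusted p 0.0946), in which 4 genes of the whole table were called.

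Aldh1a2 (ENSMUSG00000013584, chromosome 9, 71215789 to 71296243, plus strand) encodes RALDH2, the retinaldehyde dehydrogenase that supplies most of the retinoic acid of the early embryo. It was at 1.42, 1.56 and 1.90 CPM in KO ethanol libraries against 2.68, 3.09 and 3.89 CPM in KO PBS libraries. In WT it was at 1.71, 1.32 and 2.05 CPM in ethanol libraries against 1.77, 2.88 and 3.52 CPM in PBS libraries. The KO groups were apart, and in WT the lowest PBS library, library 7, fell inside the ethanol range. Averaged over genotypes Aldh1a2 was lower at a fold of 0.561 (log2 fold change -0.83, SE 0.19, adjusted p 0.0171). Within genotypes the log2 fold change was -0.98 (SE 0.26, adjusted p 0.0787) in KO and -0.68 (SE 0.27, adjusted p 0.237) in WT, neither of them called, though the KO value passed without WT PBS library 7 (adjusted p 0.0446) and without libraries 8, 9 and 12 (adjusted p 0.02, against 0.0179 to 0.283 over all alternatives). The averaged call was lost without KO PBS library 3 (-0.76, adjusted p 0.05, not under it) and without the 3 libraries rich in muscle RNA (-0.60, adjusted p 0.0799), and the WT value moved to -0.45 without WT PBS library 9 and to -0.21 without those 3.

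Aldh1a3 (ENSMUSG00000015134, chromosome 7, 66390890 to 66427517, minus strand), another retinaldehyde dehydrogenase of this family, ran between 1.94 and 3.45 CPM in KO ethanol libraries and between 2.60 and 2.95 CPM in KO PBS libraries. It ran between 2.17 and 4.06 CPM in WT ethanol libraries and between 2.496 and 2.74 CPM in WT PBS libraries. In both genotypes the ethanol libraries spread to both sides of the PBS libraries. The log2 fold change was 0.02 (95% interval -0.51 to 0.55, adjusted p 0.991) in KO and 0.18 (-0.36 to 0.72, adjusted p 0.779) in WT. Without WT ethanol library 12, its highest library, the WT value was -0.09, and without libraries 8, 9 and 12 it was -0.01. The intervals leave room for changes of up to about these bounds, which are not a limit of detection. With a similar SE, Rarb in KO was not called at 1.02 (SE 0.25, adjusted p 0.0651).

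Cyp26b1 (ENSMUSG00000063415, chromosome 6, 84571414 to 84593908, minus strand) showed the largest fold change of the 9. In KO it reached 26.6, 30.8 and 19.7 CPM in ethanol libraries against 9.69, 7.43 and 6.78 CPM in PBS libraries. In WT it reached 17.7, 23.0 and 35.7 CPM in ethanol libraries against 7.13, 9.20 and 6.90 CPM in PBS libraries. The lowest ethanol library of either genotype was above the highest PBS library, and the ethanol libraries were the more scattered. Means were 25.7 ± 5.63 CPM in KO ethanol and 7.97 ± 1.53 CPM in KO PBS libraries, and 25.5 ± 9.22 CPM in WT ethanol and 7.74 ± 1.27 CPM in WT PBS libraries (SD, n = 3 each). Cyp26b1 rose 3.22-fold in KO (log2 fold change 1.69, SE 0.27, adjusted p 0.0161) and 3.29-fold in WT (1.72, SE 0.27, adjusted p 0.0251). Averaged over genotypes it rose 3.25-fold (1.70, SE 0.19, adjusted p 0.000918).

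The averaged Cyp26b1 call held in all 21 alternatives, whereas the calls within a genotype depended on single libraries. In KO the adjusted p was 0.0872 without KO PBS library 2 (log2 fold change 1.64) and 0.0868 without KO PBS library 3 (1.59). In WT it was 0.0530 without KO PBS library 2, 0.0571 without WT PBS library 8, 0.0795 without WT PBS library 9 and 0.0580 without WT ethanol library 11. It was 0.138 without libraries 8, 9 and 12 together (1.53), where 1 WT PBS library remained and was assumed to vary like the other groups, and 0.241 in a fit of the WT libraries alone (1.74). The log2 fold change stayed between 1.54 and 1.85 in KO and between 1.40 and 1.92 in WT over these settings.

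Cyp26a1 (ENSMUSG00000024987, chromosome 19, 37697798 to 37701536, plus strand), the other breakdown enzyme and a classical retinoic acid target, was the weakest of the 9 genes, with 8 to 22 counts per library. It was at 0.45, 0.71 and 0.80 CPM in KO ethanol libraries against 0.61, 0.42 and 0.37 CPM in KO PBS libraries. In WT it was at 0.37, 0.42 and 0.53 CPM in ethanol libraries against 0.68, 0.50 and 0.56 CPM in PBS libraries. The groups overlapped in both genotypes, and the mean was higher under ethanol in KO and lower in WT. The log2 fold change was 0.47 (95% interval -0.20 to 1.14, adjusted p 0.508) in KO and -0.41 (-1.14 to 0.32, adjusted p 0.597) in WT, where it was -0.77 without libraries 8, 9 and 12. At this depth the intervals reach past a doubling in KO and a halving in WT.

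Rara (ENSMUSG00000037992, chromosome 11, 98927818 to 98974942, plus strand) and Rarg (ENSMUSG00000001288, chromosome 15, 102234938 to 102257517, minus strand) were the abundant receptors, and neither was called. Rara stood at 39.2, 44.4 and 40.3 CPM in KO ethanol libraries against 40.9, 41.8 and 37.8 CPM in KO PBS libraries, and at 46.2, 43.0 and 42.6 CPM in WT ethanol libraries against 51.7, 46.4 and 40.7 CPM in WT PBS libraries. Rarg stood at 65.7, 65.1 and 58.5 CPM in KO ethanol libraries against 63.0, 58.9 and 65.1 CPM in KO PBS libraries, and at 62.8, 65.6 and 52.7 CPM in WT ethanol libraries against 67.4, 45.7 and 57.4 CPM in WT PBS libraries. Ethanol and PBS libraries overlapped throughout. The averaged log2 fold change was -0.02 for Rara (95% interval -0.15 to 0.12, adjusted p 0.894) and 0.05 for Rarg (-0.14 to 0.25, adjusted p 0.770). Without libraries 8, 9 and 12 these were -0.08 for Rara and -0.02 for Rarg.

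Rarb (ENSMUSG00000017491, chromosome 14, 16430839 to 16819156, minus strand) was the rare receptor and the one that changed. In KO it measured 4.66, 3.28 and 3.25 CPM in ethanol libraries against 1.70, 1.77 and 2.07 CPM in PBS libraries. In WT it measured 3.32, 3.24 and 4.11 CPM in ethanol libraries against 1.37, 2.59 and 2.87 CPM in PBS libraries. The groups did not overlap in either genotype, with a narrower gap in WT. Averaged over genotypes Rarb rose 1.78-fold (log2 fold change 0.83, SE 0.18, adjusted p 0.0146), a call that held in all 20 alternatives that tested it. Within genotypes it was not called, at 1.02 (SE 0.25, adjusted p 0.0651) in KO and 0.65 (SE 0.26, adjusted p 0.239) in WT. The KO value passed without WT PBS library 7 (adjusted p 0.0251) and without libraries 8, 9 and 12 (adjusted p 0.0124, against 0.0089 to 0.221 over all alternatives). The WT value was 0.38 without library 7, its lowest, and 1.27 without libraries 8, 9 and 12.

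Rarb shares 2020 bases of exon with genes on the opposite strand, Top2b and Gm48162, and the sources used here do not say whether reads were counted by strand. Its count is therefore uncertain. Top2b, which encodes a DNA topoisomerase, averaged 204.1 CPM in KO ethanol and 205.7 CPM in KO PBS libraries, and 195.8 CPM in WT ethanol and 194.1 CPM in WT PBS libraries. Its averaged log2 fold change was 0.00 (adjusted p 0.998). The part of Top2b reads in the Rarb count was not tested.

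**Figure D2:**
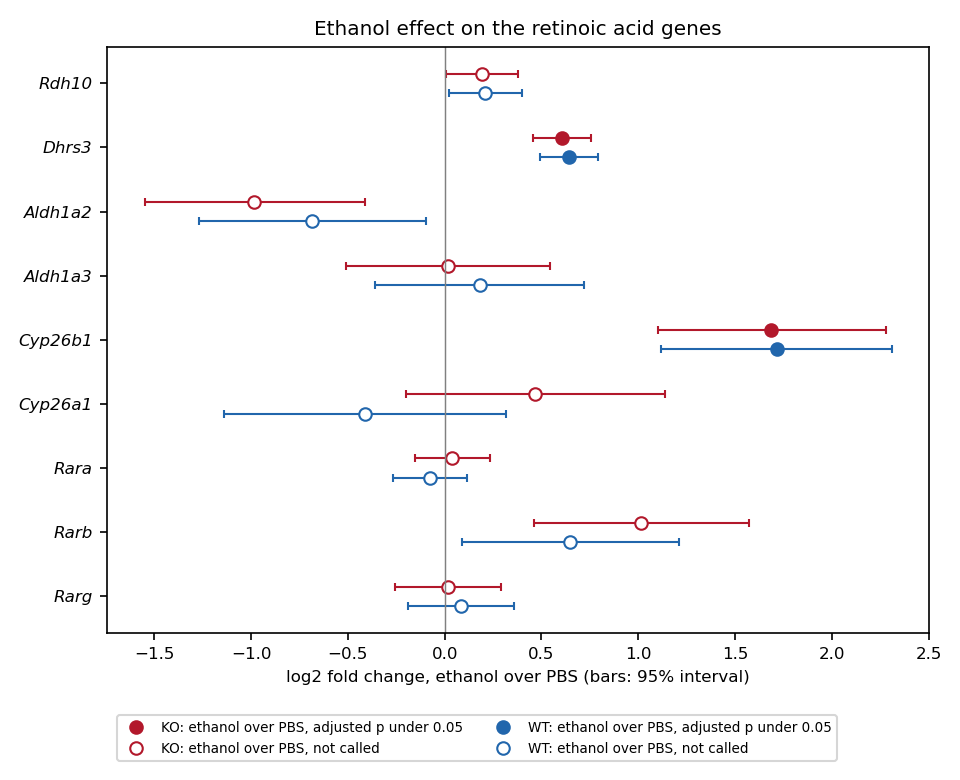
Log2 fold change of ethanol over PBS (horizontal axis) for each of the 9 genes in KO (red) and WT (blue), with 95% intervals from the edgeR fit; filled points had an adjusted p under 0.05. The filled points are Dhrs3 and Cyp26b1 in both genotypes, and the KO and WT intervals of every gene overlap.

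Because the shafts were sequenced in bulk, a lower count can come from fewer cells of a type or from less RNA per cell, and these cannot be told apart. Markers of bone cells differed in the same ethanol libraries, with lower summed osteoblast levels and, in WT, higher summed osteoclast levels. All 8 of 8 (Bglap, Bglap2, Alpl, Ibsp, Sp7, Runx2, Col1a1 and Phospho1) had a log2 fold change below 0 in both genotypes, with a median of -0.96 in KO and -0.55 in WT. In KO edgeR called Runx2 and Phospho1 lower (2 of 8), against 0.903% of all genes. In WT it called 0 of 8, against 0.705% of all genes called lower. There 3 had an unadjusted p under 0.05, against 16% of all genes in either direction. Averaged over genotypes 6 of the 8 were called lower (median -0.79), against 5.81% of all genes. None of the 8 was at 0 in any library. Their summed level was 5848 to 12870 CPM in KO ethanol against 18610 to 22220 CPM in KO PBS libraries, and 6109 to 11970 CPM in WT ethanol against 12570 to 15830 CPM in WT PBS libraries. The 6 osteocyte markers (Dmp1, Sost, Phex, Mepe, Fgf23 and Pdpn) had a median log2 fold change of -0.23 in KO and -0.51 in WT. In KO 5 of 6 lay below 0, and in WT 6 of 6. Within genotypes 0 of 6 were called, and averaged 1 of 6 was called lower, against 5.81% of all genes. Their summed level overlapped between ethanol and PBS libraries, at 1747 to 3302 against 2733 to 3158 CPM in KO and 2195 to 3177 against 3160 to 4554 CPM in WT. The 7 osteoclast markers (Ctsk, Acp5, Calcr, Mmp9, Ocstamp, Dcstamp and Atp6v0d2) had a median log2 fold change of 0.10 in KO, with 6 of 7 above 0, and of 0.71 in WT, with 7 of 7 above 0. Calcr was the 1 of 7 called in each genotype, higher, against 0.964% of all genes called higher in KO and 0.556% in WT. Averaged over genotypes Calcr and Ocstamp were called higher (2 of 7, median 0.38), against 5.02% of all genes. Their summed level was 1845 to 2213 CPM in KO ethanol against 1626 to 1995 CPM in KO PBS libraries, which overlapped, and 2339 to 3185 CPM in WT ethanol against 1774 to 2094 CPM in WT PBS libraries, which did not. None of the 7 was at 0 in any library. The summed level of 6 cartilage markers, most of it Col2a1 and with Matn3 at 0 to 3 counts per library, was 79.6 to 213 CPM in KO ethanol against 259.7 to 334.2 CPM in KO PBS libraries, and 98.8 to 249.9 CPM in WT ethanol against 226 to 307.5 CPM in WT PBS libraries. Of the 5 cartilage markers tested only Sox9 was called, lower, averaged over genotypes (1 of 5, against 5.81% of all genes). Comp lay above 0 in WT (log2 fold change 0.37, adjusted p 0.574). The part of these cell types in the changes of Aldh1a2, Cyp26b1, Dhrs3 and Rarb was not tested.

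The upstream sequences of Rarb, Cyp26b1 and Dhrs3, which were called higher, and of Cyp26a1 are shown because retinoic acid receptors classically bind direct repeats of a hexamer in such regions. The windows are the 250 bases before an annotated start, in RefSeq on GRCm38.p6, written 5′ to 3′ in the direction of transcription. The Rarb window lies inside the gene interval given above, and the Cyp26b1 and Cyp26a1 windows reach into theirs. Counts are of whole genes, not of transcripts from a given start. RefSeq windows were matched for 7 of the 9 genes (13 windows in all), and Aldh1a3 and Rdh10 are not shown. The search used the half-sites AGGTCA or AGTTCA as well as GGGTCA or GGTTCA, as pairs in the same orientation with 1, 2 or 5 bases between them, on either strand. Capitals mark a pair with 5 bases between. The windows are Rarb chr14:16575477-16575726 (minus strand), Cyp26a1 chr19:37697558-37697807 (plus strand), Cyp26b1 chr6:84593811-84594060 (minus strand) and Dhrs3 chr4:144892577-144892826 (plus strand).
Rarb: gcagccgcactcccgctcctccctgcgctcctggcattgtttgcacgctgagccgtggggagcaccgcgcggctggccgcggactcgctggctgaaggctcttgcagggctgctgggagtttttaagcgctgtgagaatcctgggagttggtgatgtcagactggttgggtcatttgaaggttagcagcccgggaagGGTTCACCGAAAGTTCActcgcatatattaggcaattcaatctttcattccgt
Cyp26a1: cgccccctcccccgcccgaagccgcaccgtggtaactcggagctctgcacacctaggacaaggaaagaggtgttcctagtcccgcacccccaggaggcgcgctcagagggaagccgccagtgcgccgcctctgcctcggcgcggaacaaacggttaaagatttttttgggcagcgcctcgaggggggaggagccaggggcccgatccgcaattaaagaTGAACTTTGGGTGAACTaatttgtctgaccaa
Cyp26b1: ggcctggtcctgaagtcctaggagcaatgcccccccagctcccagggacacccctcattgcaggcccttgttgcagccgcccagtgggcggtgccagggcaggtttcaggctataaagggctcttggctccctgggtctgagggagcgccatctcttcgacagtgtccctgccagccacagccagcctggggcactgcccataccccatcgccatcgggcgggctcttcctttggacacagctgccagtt
Dhrs3: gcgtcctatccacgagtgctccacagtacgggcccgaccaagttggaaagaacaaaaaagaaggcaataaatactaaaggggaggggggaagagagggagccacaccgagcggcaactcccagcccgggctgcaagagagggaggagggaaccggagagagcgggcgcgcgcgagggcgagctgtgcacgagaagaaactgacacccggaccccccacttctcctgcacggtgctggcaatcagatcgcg

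The Rarb window held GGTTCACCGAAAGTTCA from 53 to 37 bases before the start. The Cyp26a1 window held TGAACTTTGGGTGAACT from 32 to 16 bases before the start, which on the other strand reads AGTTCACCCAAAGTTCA. Such a pair with 5 bases between was present in 29 of 32851 windows of this length (0.0883%), and in 2 of the 13 windows of the members. Rara has 4 of these 13 windows, Dhrs3 3 and Rarg 2. The hits lie in genes introduced above as known targets, so the count is a description and not a test. Pairs with 1 base between (0.164% of all windows) or 2 bases between (0.174%) were in none of the 13. Single half-sites, at 38.6% of all windows, were in 4 of the 13, belonging to Rara, Rarb, Rarg and Cyp26a1. The Cyp26b1 window and the Dhrs3 window shown above held no half-site, which says only that these letters are not in these 250 bases. Of the pair of genes with the repeat, Rarb had an averaged log2 fold change of 0.83 (adjusted p 0.0146) and Cyp26a1 one of 0.03 (adjusted p 0.974). The Cyp26a1 value averages 0.47 in KO and -0.41 in WT at very low counts. It changed sign in 7 of 19 alternatives, between -0.15 and 0.15.

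The comparison of KO with WT asks whether the Cat genotype changed these genes or their response to ethanol. Under ethanol no member stood apart between genotypes, with 0 of 9 higher or lower without overlap, against 7.12% of all genes higher and 4.04% lower. None of the 9 was called by edgeR between genotypes under ethanol, under PBS or averaged over the gavages, where 0.011% of all tested genes were called in each case. At an unadjusted p under 0.05 there were 0 of 9 under ethanol and 2 of 9 under PBS and averaged, Dhrs3 and Rara both times, against 5.78%, 7.43% and 14.3% of all genes. DESeq2, limma-voom and limma-trend also called 0 of the 9, although DESeq2 gave no adjusted p for any of them in the averaged comparison. Dhrs3 in KO PBS libraries lay above all WT PBS libraries, at a log2 fold change of 0.16 (SE 0.07, adjusted p 0.605), the 1 member of 9 that was higher without overlap, against 8.98% of all genes, while 0 of 9 were lower, against 5.16%. Under ethanol its difference was 0.13 (adjusted p 0.820), and 0.08 without libraries 8, 9 and 12. Rara was at -0.20 (SE 0.09, adjusted p 0.605) under PBS with overlapping groups, and at -0.12 without WT PBS library 7 and -0.36 without libraries 8, 9 and 12 (adjusted p 0.241, the lowest of all alternatives). The Cyp26b1 difference between KO and WT was 0.01 (95% interval -0.55 to 0.58) under ethanol and 0.04 (-0.55 to 0.64) under PBS. Without libraries 8, 9 and 12 it was 0.32 under ethanol and 0.16 under PBS.

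The ethanol effect itself was not shown to differ between genotypes for any of the 9 genes. The interaction, taken as the log2 fold change in KO minus that in WT, was called for 0 genes of the whole table by edgeR (0% of tested genes, 359 at an unadjusted p under 0.05) and for 1 gene, not one of the 9, by DESeq2. It was -0.03 for Cyp26b1 (95% interval -0.85 to 0.79) and -0.03 for Dhrs3 (-0.25 to 0.18). For Rarb it was 0.37 (-0.42 to 1.15) and for Aldh1a2 -0.30 (-1.12 to 0.52). With 1 library left out the Rarb value ran between 0.15 (without WT PBS library 9) and 0.64 (without WT PBS library 7), and without libraries 8, 9 and 12 it was -0.25, of the other sign. With 1 library left out the Aldh1a2 value ran between -0.54 (without WT PBS library 9) and -0.06 (without WT PBS library 7), and without those 3 it was -0.77. Without those 3 the Cyp26b1 value was 0.16. Cyp26a1 had the widest gap, 0.88 (-0.11 to 1.87, unadjusted p 0.0768, adjusted p 1). No member had an unadjusted p under 0.05. The intervals of Rarb, Aldh1a2 and Cyp26a1 leave room for differences of 2-fold.

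The number of members whose ethanol and PBS libraries did not overlap can be set against the whole table. In KO 4 of 9 were higher without overlap (Cyp26b1, Dhrs3, Rdh10 and Rarb), against 16.3% of all tested genes, and 1 of 9 was lower (Aldh1a2), against 16%. In WT the same 4 of 9 were higher, against 7.32% of all genes, and 0 of 9 were lower, against 9.06%. Higher in both genotypes without overlap were 4 of 9 members and 4.16% of all genes, lower in both were 0 of 9 and 5.46%, and called higher in both were 2 of 9 members and 0.325% of all genes.

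Levels of different genes were compared per length, as CPM per kilobase of exon (CPM per kb). For Rarb the exon length includes the bases shared with genes on the opposite strand. Its per-length level, and the order, ratios and shares built on it, are therefore uncertain too. Dhrs3 was the most abundant transcript in every group, with mean levels of 28.7 in KO ethanol, 18.8 in KO PBS, 26.2 in WT ethanol and 16.8 CPM per kb in WT PBS libraries. Rarg came next in each group, at 13.3 to 14.8 CPM per kb, then Rara at 9.20 to 10.6. The lowest was Cyp26a1, at 0.22 to 0.33 CPM per kb. Libraries of neighbours in this order were apart for Dhrs3 and Rarg in every group, and for Rarg and Rara in all groups but WT PBS.

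The middle of the order differed between gavages. Under ethanol Cyp26b1 stood next after Rara, at 4.80 CPM per kb in KO and 4.76 in WT, overlapping Rdh10 at 3.72 in KO and 3.68 in WT. In PBS libraries Cyp26b1 was at 1.49 CPM per kb in KO and 1.45 in WT, below Rdh10 at 3.26 in KO and 3.18 in WT and overlapping Aldh1a2 at 1.42 in KO and 1.20 in WT. Under ethanol Aldh1a2 (0.72 CPM per kb in KO, 0.75 in WT), Rarb (0.71 and 0.68) and Aldh1a3 (0.60 and 0.65) overlapped one another. Rdh10 lay above them and Cyp26a1 below them, each without overlap. In PBS libraries of KO Aldh1a2 was above Aldh1a3 (0.60), Aldh1a3 above Rarb (0.35) and Rarb above Cyp26a1 (0.24), each without overlap. In WT PBS Aldh1a3 (0.57) overlapped Rarb (0.43), which overlapped Cyp26a1 (0.29).

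**Figure D3:**
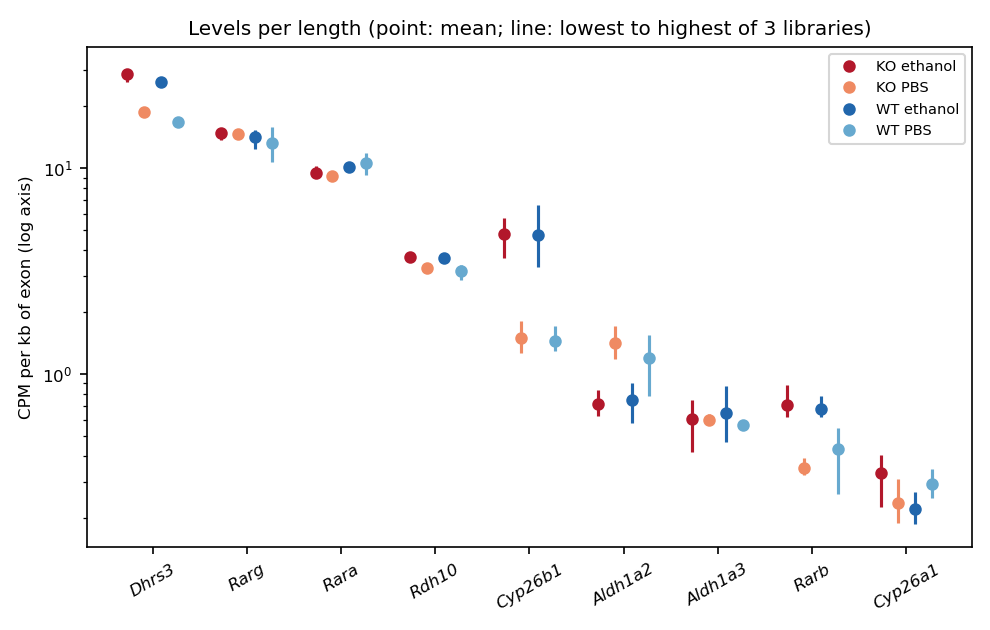
Level per length of the 9 genes (vertical log axis, CPM per kb of exon) in the 4 groups; points are means and lines run from the lowest to the highest of 3 libraries. Dhrs3 is highest in every group, and Cyp26b1 lies near Rdh10 under ethanol and near Aldh1a2 under PBS.

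Ratios within a library put breakdown beside synthesis. They were chosen after the values had been seen and are given with no test. The per-length level of Cyp26b1 over that of Aldh1a2 was 4.38 to 8.39 in KO ethanol against 0.738 to 1.53 in KO PBS libraries, and 4.39 to 7.40 in WT ethanol against 0.829 to 1.70 in WT PBS libraries. Dhrs3 over Rdh10, the reverse enzyme over the forward one, averaged 7.73 ± 0.781 in KO ethanol and 5.80 ± 0.434 in KO PBS libraries, and 7.14 ± 0.563 in WT ethanol and 5.31 ± 0.296 in WT PBS libraries (SD, n = 3 each). Rarb made up 2.84% ± 0.586 of the summed per-length level of the 3 receptor genes in KO ethanol and 1.45% ± 0.147 in KO PBS libraries, and 2.74% ± 0.581 in WT ethanol and 1.84% ± 0.789 in WT PBS libraries. Transcript ratios do not measure the amount of retinoic acid.

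The rest of the retinoid machinery was read from 4 lists. They were chosen with earlier results of these data known, so their counts are a description and not a test. Over all tested genes the averaged ethanol effect had 5.02% called higher and 5.81% called lower, 47.9% above 0 and a median of -0.01, beside which the counts of each list stand. Of 14 genes of retinoid uptake and binding 13 matched the table and 7 were abundant enough to test. The transporter gene Stra6, the binding protein genes Crabp1, Crabp2 and Rbp2, Lrat and Ttr were too low. For the averaged ethanol effect 1 of 7 was called, lower, and the median log2 fold change was 0.12. That gene was Fabp5, a fatty acid binding protein that can also carry retinoic acid to another nuclear receptor, at 22.9, 26.8 and 24.7 CPM in KO ethanol libraries against 31.4, 36.1 and 34.3 CPM in KO PBS libraries, and at 25.4, 23.6 and 25.2 CPM in WT ethanol libraries against 35.6, 33.9 and 34.6 CPM in WT PBS libraries. The groups were apart in both genotypes. Fabp5 was lower, with a log2 fold change of -0.47 (SE 0.05, adjusted p 0.00081), with the limit that reads may be shared with its processed pseudogenes. Lpl, the lipoprotein lipase gene, at -0.68 (adjusted p 0.104), and Lrp1, a lipoprotein receptor gene, at 0.14 (adjusted p 0.119), were not called.

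Among 26 other retinol and retinal oxidoreductases 19 were tested, and for the averaged ethanol effect 3 were called higher and 0 lower, with a median log2 fold change of 0.14. Cyp1b1, a cytochrome P450 that can turn retinol into retinoic acid, was at 137.9, 147.9 and 187.8 CPM in KO ethanol libraries against 94.9, 98.1 and 118.8 CPM in KO PBS libraries. In WT it was at 125, 138.5 and 123.9 CPM in ethanol libraries against 88.1, 73.3 and 95.4 CPM in PBS libraries. All ethanol libraries were above all PBS libraries, and Cyp1b1 rose, with a log2 fold change of 0.60 (SE 0.09, adjusted p 0.00352). Adh7, an alcohol dehydrogenase with a high affinity for retinol, rose by 0.87 (SE 0.23, adjusted p 0.0353) with a mean of only 1.08 CPM under ethanol and 0.588 CPM under PBS. Dhrs9, a retinol dehydrogenase, rose by 0.41 (SE 0.11, adjusted p 0.0409). The Adh7 call was lost in 10 of 20 alternatives, among them without any 1 of libraries 1 to 6, 8, 9 and 11 (adjusted p 0.0536 to 0.0803). The Dhrs9 call was lost in 11 of 21, among them without any 1 of libraries 1, 2, 3, 5, 6, 8, 9, 11 and 12 (adjusted p 0.0507 to 0.0967).

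All 15 genes of the RXR and co-regulator list were tested, and for the averaged ethanol effect 2 were called higher and 0 lower, with a median of 0.05. Ncoa3, a nuclear receptor coactivator, rose by 0.28 (SE 0.05, adjusted p 0.00523), at a mean of 130.4 CPM under ethanol and 107.5 CPM under PBS. Rxrb, one of the 3 RXR genes, rose by 0.14 (SE 0.04, adjusted p 0.0375), a call lost in 11 of 21 alternatives, among them without any 1 of libraries 1 to 6, 9, 10 and 12 (adjusted p 0.0579 to 0.0988). Ep300, an acetyltransferase coactivator, was at 0.16 (adjusted p 0.107).

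Of 25 genes listed as retinoic acid targets, mostly from embryonic and cell line studies, 20 were tested. For the averaged ethanol effect 3 were called higher and 0 lower, against 5.02% and 5.81% of all tested genes. Of the 20, 17 had a log2 fold change above 0, against 47.9% of all tested genes, with a median of 0.24. Because the list was chosen with earlier results of these data known, these counts are a description and not a test. Tgm2, the tissue transglutaminase gene, rose by 0.36 (SE 0.06, adjusted p 0.00513), at 115.2 CPM under ethanol and 89.97 CPM under PBS. Tshz1, a zinc finger gene, rose by 0.30 (SE 0.04, adjusted p 0.0018), and it was at 46.3, 47.9 and 44.8 CPM in KO ethanol against 40, 38.1 and 36.8 CPM in KO PBS libraries, and at 44.95, 44.6 and 41.9 CPM in WT ethanol against 34.7, 35.2 and 35.8 CPM in WT PBS libraries. The Tshz1 groups were apart in both genotypes. Hoxa5, a homeobox gene, rose by 0.35 (SE 0.08, adjusted p 0.0187), a call lost without KO PBS library 2 (0.34, adjusted p 0.0569), KO PBS library 3 (0.33, adjusted p 0.0579) or KO ethanol library 6 (0.32, adjusted p 0.0507), and without libraries 8, 9 and 12 (0.37, adjusted p 0.0661). The averaged calls of Fabp5, Cyp1b1, Ncoa3, Tgm2 and Tshz1 held in all 21 alternatives.

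Within genotypes fewer list genes were called. In KO Fabp5 was lower and Cyp1b1 and Tshz1 higher, and in WT Fabp5 was lower and Tshz1 higher. These calls within a genotype were lost without single libraries. In KO this held for Fabp5 without library 2, 3, 4 or 6 (adjusted p 0.0592 to 0.0872), for Cyp1b1 without library 1, 2, 3, 5, 6, 7, 10 or 11 (0.0565 to 0.175), and for Tshz1 without any of libraries 1 to 6 or library 11 (0.0526 to 0.163). In WT it held for Fabp5 without library 8, 9, 10 or 11 (0.0539 to 0.0635) and for Tshz1 without any of libraries 1 to 5 and 8 to 11 (0.0509 to 0.0778). Without libraries 8, 9 and 12 the adjusted p was 0.0548 for Cyp1b1 in KO, and 0.0905 for Fabp5 and 0.0872 for Tshz1 in WT. Of the 61 list genes tested, edgeR called 0 between KO and WT under ethanol (2 at an unadjusted p under 0.05, where 5.78% of all genes were), 0 under PBS (5, against 7.43%), 0 averaged over the gavages (8, against 14.3%) and 0 for the interaction (0, against 1.98%). Averaged over the gavages DESeq2 called Lrp1 (log2 fold change of KO over WT 0.19, adjusted p 0.0349) and Cyp1b1 (0.29, adjusted p 0.0492), which edgeR did not (adjusted p 0.328 for both).

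**Figure D4:**
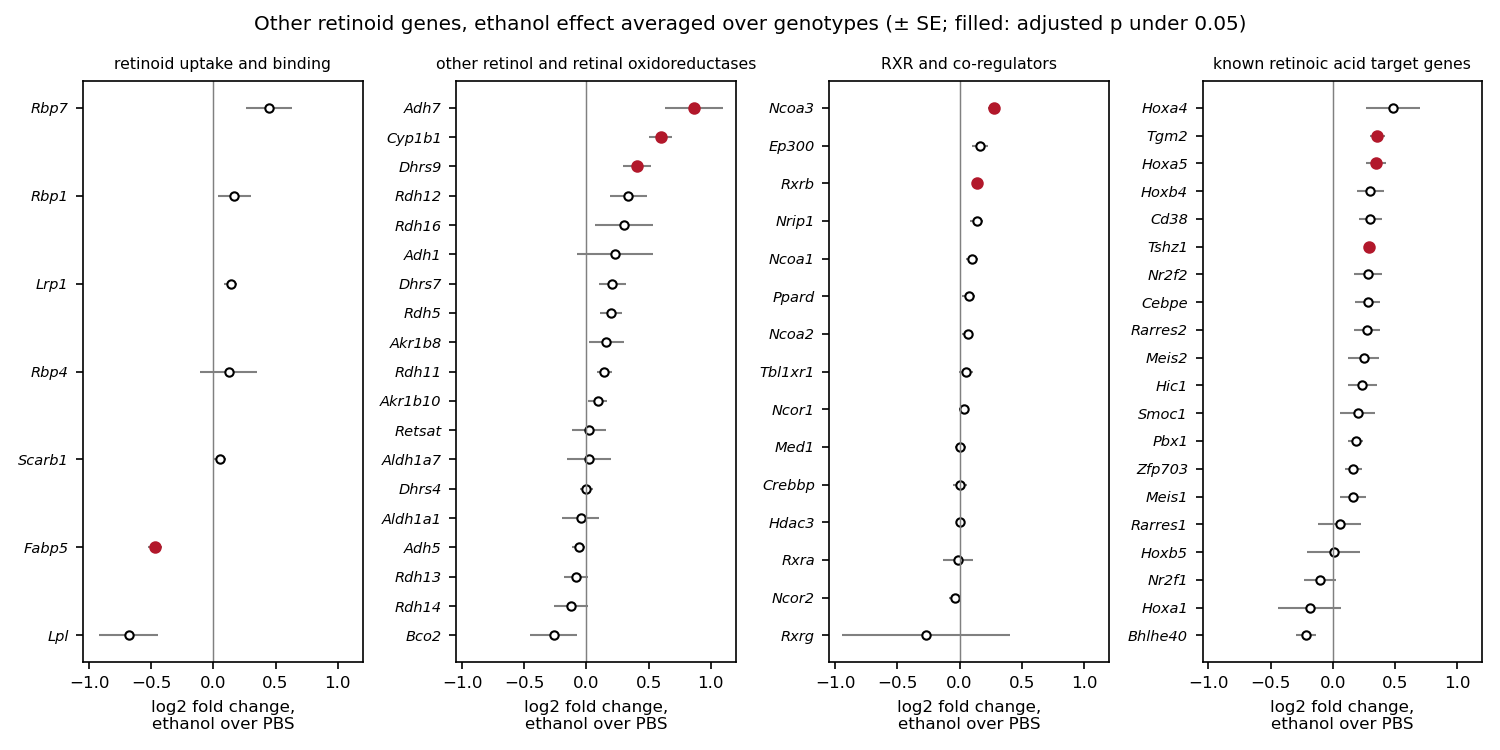
Averaged log2 fold change of ethanol over PBS (horizontal axis) with its SE for every tested gene of the 4 retinoid lists, sorted by size within each list; filled points had an adjusted p under 0.05. Of the 9 filled points, Fabp5 lies left of 0 and the other 8 right of it, and 17 of the 20 target genes lie right of 0. The lists were chosen with earlier results of these data known.

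Over the 12 libraries, the genes whose log2 CPM tracked Cyp26b1 most closely, among named genes with a mean of at least 1 CPM, were Ptpru (r = 0.953), Nacad (0.949), Ttc38 (0.942), Aifm2 (0.941) and Crispld2 (0.939). Among the lowest r were those of Yipf5 (-0.973) and Ctu2 (-0.967). These are Pearson correlations over 12 libraries that share the ethanol and PBS groups, so they are a description and no test was made. After each group's mean was removed, r was 0.58 for Ptpru, 0.627 for Nacad, 0.729 for Ttc38, 0.73 for Aifm2 and 0.507 for Crispld2, and -0.717 for Yipf5 and -0.917 for Ctu2. Crispld2, which encodes a secreted glycoprotein, averaged 116.3 CPM in KO ethanol and 51.7 CPM in KO PBS libraries, and 114.4 CPM in WT ethanol and 57.6 CPM in WT PBS libraries.

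Within the 9 genes, the correlation with Cyp26b1 was 0.86 for Dhrs3, 0.817 for Rarb, 0.804 for Rdh10 and -0.766 for Aldh1a2. With the group means removed, these became -0.73 for Dhrs3, 0.231 for Rarb, 0.162 for Rdh10 and -0.04 for Aldh1a2. Aldh1a3 had the opposite pattern, at 0.362 over all libraries and 0.815 with the group means removed. Among the 3 WT ethanol libraries, for example, Cyp26b1 and Aldh1a3 were both highest in library 12 (35.7 and 4.06 CPM) and both lowest in library 10 (17.7 and 2.17 CPM), and Dhrs3 was lowest in library 12 (72.9 CPM) and highest in library 10 (81.6 CPM). The share of muscle markers also rose over these libraries, from 0.10% in library 10 to 1.46% in library 11 and 2.75% in library 12. Its part in this order was not tested.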

How the data were processed

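Femoral shaft RNA of 4 groups with 3 pooled libraries each was analysed. The authors deposited a table of raw read counts per Ensembl gene (49315 genes, whole numbers, not normalized) and a normalized signal for 17408 genes, which per the file headers and values is the count divided by 1 constant per library. Per the submitters' processing notes the tools were Trimmomatic 0.36, STAR 2.5.2b, featureCounts and Subread 1.5.2, with genome build GRCm38. The sources used here give neither settings, strand nor annotation release. Gene coordinates and exon lengths came from GENCODE M21, which matched 48970 identifiers, and symbols from the deposited normalized table or GENCODE.

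The filterByExpr step (at least 10 counts, and 15 in total) kept 18161 genes, which were scaled by TMM factors between 0.908 and 1.05. Levels are CPM on these scaled library sizes. One robust edgeR 4.0.16 quasi-likelihood model in R 4.3.3 with a coefficient for each group, 8 residual degrees of freedom and a common dispersion of 0.0338 gave the 7 comparisons. Every adjusted p is from this test with Benjamini-Hochberg adjustment over all tested genes, unless another tool is named. The SE is the log2 fold change divided by the square root of F, and intervals are 95%. Correlations used log2 CPM with a prior count of 2. Replicates are pools of 2 mice whose numbers do not repeat between groups.

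Named are the 9 members, every gene of the 4 retinoid lists that was called in any comparison, the 3 per list with the smallest p for the averaged ethanol effect, Cat, and the 5 highest and 3 lowest correlations with Cyp26b1, of which 1 is not reported here. Predicted genes, pseudogenes and Riken clones were left out of these correlations. Top2b was added for its overlap with Rarb. Members, lists and tests were chosen with earlier results of these data known. Alternatives changed the scaling factors, the filter, the test (DESeq2 1.42.0, limma 3.58.1 by voom, or limma-trend on log2 of the deposited signal + 1), the libraries in the fit, or added the mean log2 CPM of the muscle list as a covariate.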

Additional observations from a re-analysis of the deposited data

How the results depend on the processing

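For ethanol in KO the count of called members was 2, and it was 4 with DESeq2, 4 in a fit of the KO libraries alone, 4 with the muscle covariate and 4 without libraries 8, 9 and 12, with Aldh1a2 and Rarb added each time. Leaving out 1 library in turn gave 1 to 4, with 1 without KO PBS library 2 or 3 and 4 without WT PBS library 7. For ethanol in WT it was 2, and it was 0 in a fit of the WT libraries alone and 1 without libraries 8, 9 and 12, and 1 to 2 with 1 library left out. The causes were not tested. The averaged effect kept 3 to 5 called members, and the genotype comparisons and the interaction kept 0 in every alternative that tested them. No called log2 fold change of a named gene changed sign. Rdh10 passed the averaged test in 5 alternatives (adjusted p over all alternatives 0.0369 to 0.174).

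Over the whole table the calls for ethanol in KO were 339, against 951 with DESeq2, 1677 in the KO fit alone, 883 with the muscle covariate, 1342 without libraries 8, 9 and 12, and 52 to 568 with 1 library left out. In WT they were 229, against 709 with DESeq2, 152 with voom, 4 in the WT fit alone, 502 with the muscle covariate, 37 without those 3 libraries, and 35 to 320 with 1 left out. The averaged count was 1967, and 1040 to 2152 with 1 left out. Between KO and WT the count was 2 in each comparison, against 13 under ethanol and 216 averaged with DESeq2. No paired analysis was possible because every library carries its own number and none is shared between groups.

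Cyp26a1, at 8 to 22 counts per library, is limited by depth. The stricter filter (5 CPM or more in 3 libraries) leaves 4 members untested, DESeq2 gave no adjusted p for Cyp26a1 in the comparisons of ethanol with PBS, and the averaged effect could not be refitted on only the groups compared. Removing libraries 8, 9 and 12 leaves 1 WT PBS library.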
